A study of Arabidopsis thaliana with 4 samples.

Results

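NF-YC1, NF-YC2, NF-YC3, NF-YC4 and NF-YC9 are the 5 Arabidopsis genes followed here, found by symbol among 27444 protein-coding genes of the annotation. They encode NF-YC subunits, the histone-fold proteins that pair with an NF-YB subunit. Peaks were taken as theirs when they lay in the gene or within 1000 bp of either end, which gave 4 of the 6356 peaks of LEC1-GFP in bent cotyledon-stage seeds.

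The NF-Y transcription factor is built from an NF-YA, an NF-YB and an NF-YC subunit. NF-YB and NF-YC first form a dimer through their histone folds, and this dimer then takes up NF-YA, which recognises the CCAAT box in DNA, or a transcription factor of another family. LEAFY COTYLEDON1 (LEC1) is an NF-YB subunit of seeds that is required for embryo maturation, so an NF-YC protein is its obligate partner, and a peak at an NF-YC gene is a peak of LEC1 at the gene of a possible partner.

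All samples came from seeds of lec1-1 mutant plants homozygous for the transgene LEC1:LEC1-GFP:LEC1, in which LEC1 fused to green fluorescent protein stands between LEC1 flanking sequences. The ChIP samples (2 biological replicates) held chromatin pulled down with a Neuromab antibody against GFP, and the input samples (2 biological replicates) held total fragmented chromatin of the same material. Whole seeds were used, so the embryo was not separated from endosperm and seed coat, and a list of peaks holds no cell type markers by which to check the tissue. The single peak list carries 1 score per peak, made by the authors in a unit that neither file nor labels name, and no value per sample. No score below therefore has an error, and no difference between scores could be tested.

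LEC1-GFP peaks lay at 4 of the 5 NF-YC genes, NF-YC2, NF-YC3, NF-YC4 and NF-YC9, each with a single peak. Of all protein-coding genes 24.6% had a peak by the same rule, and of the 3965 genes between 1421 and 1852 bp long, the lengths of the shortest and the longest of the 5 genes, 22.5% had one. The 5 genes were chosen with earlier results of these data known, so the 4 of 5 is a description and no evidence of enrichment. The 4 peaks were very unequal. NF-YC2 had a score of 3.44, NF-YC3 had 2.30, NF-YC9 had 2.27 and NF-YC4 had 2.00, on a list that ran from 1.92 to 4.51 with a median of 2.45. Only NF-YC2 stood above the median of the list, and the 3 others stood below it. NF-YC1 had no peak.

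**Figure D1:**
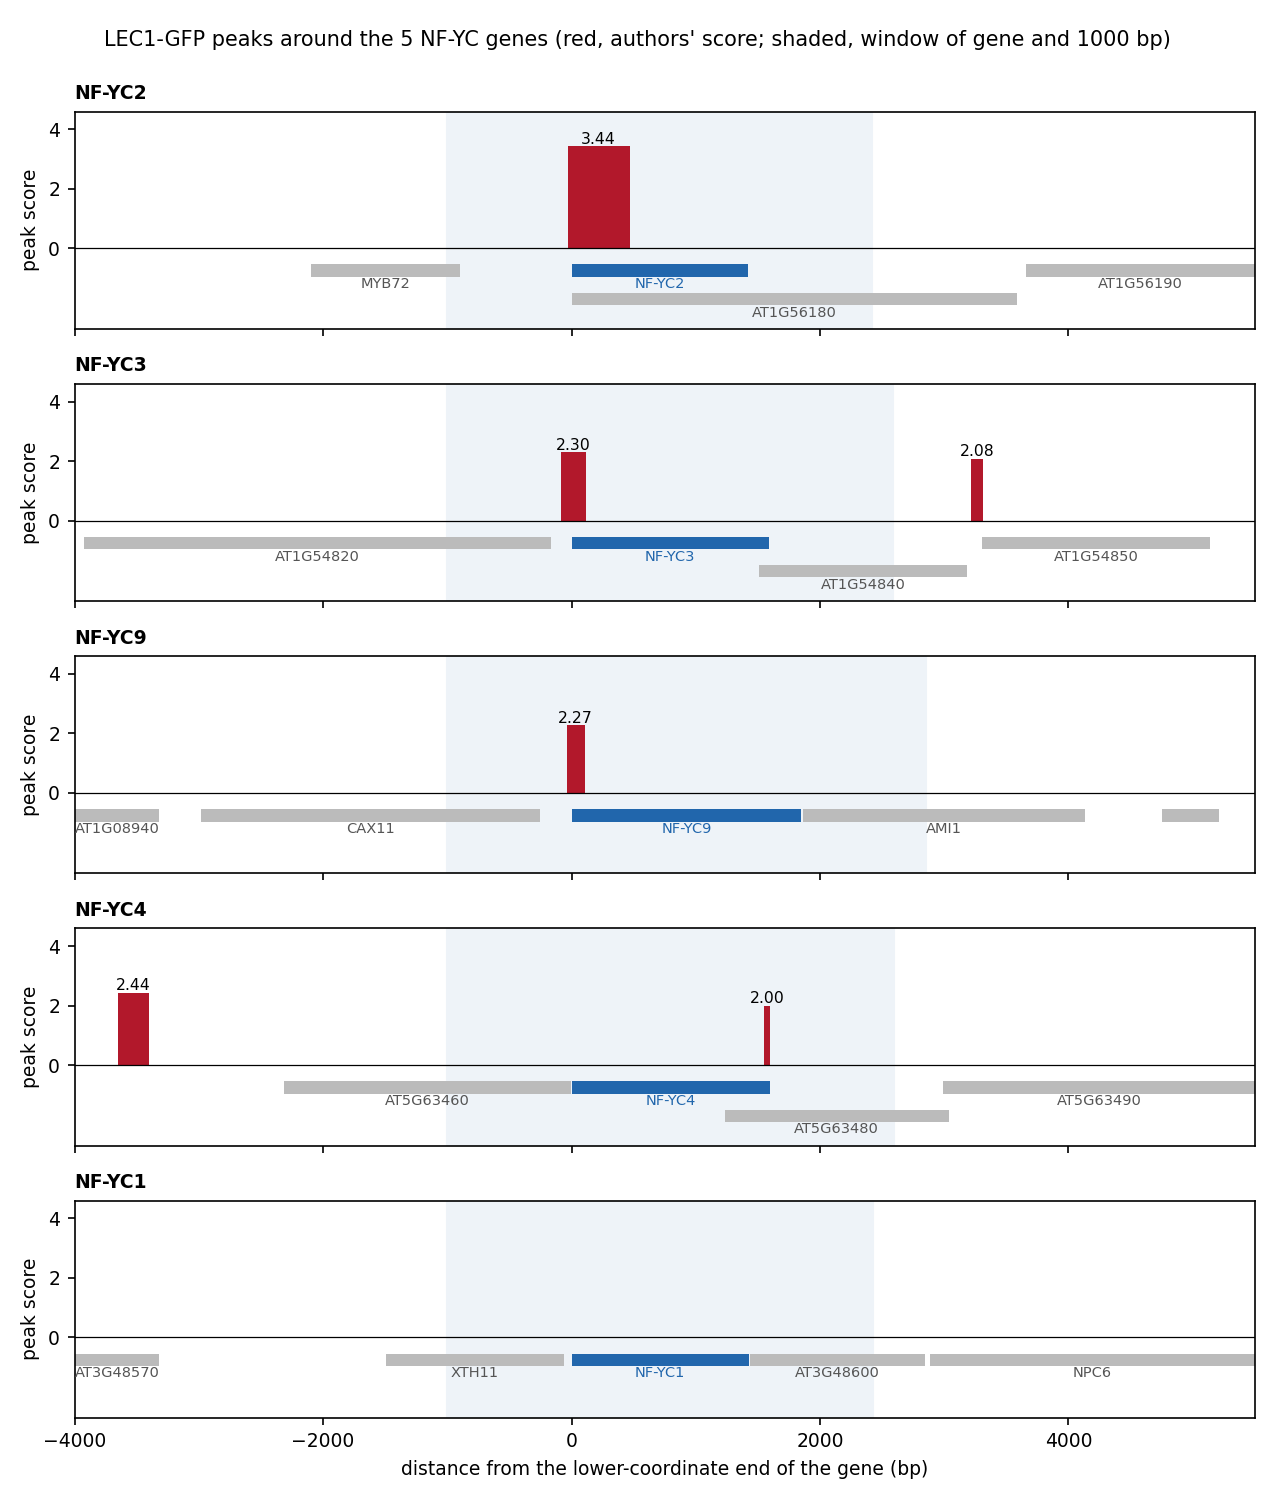
Peaks (red bars, height is the authors' score on the y axis, width to scale) and protein-coding genes (blue, the NF-YC gene; grey, other genes) around each NF-YC gene, by distance in bp from its lower-coordinate end; the shaded area is the gene with 1000 bp on either side. The peaks of NF-YC2, NF-YC3 and NF-YC9 lie across the lower-coordinate end, and the area around NF-YC1 holds none. That of NF-YC4 (2.00) lies inside its gene and stops at the last base of the other end.

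NF-YC2 carried the highest-scoring and the widest peak of the 5 genes. NF-YC2 acts with the NF-YB subunit L1L and the bZIP factor BZIP67 on seed storage genes, and with BZIP28 in the response to stress of the endoplasmic reticulum. Its peak was 499 bp wide (TAIR10 chromosome 1, 21024451 to 21024949) and its score of 3.44 ranked 320 of 6356. Among genes with a peak, 94.1% had a lower highest score. The score was high for the width as well, above 81.4% of the 172 peaks that were also 499 bp wide, whose median score was 3.02.

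The NF-YC2 peak could not be given to NF-YC2 alone. It lay across the lower-coordinate end of the gene, with 31 bp outside and 468 bp inside, and its midpoint was 218 bp inside that end. The longer gene AT1G56180 begins 4 bp from the same end and holds 1417 of the 1421 bp of NF-YC2, so 464 bp of the peak lay inside AT1G56180 too. MYB72, a transcription factor gene of the root response to iron shortage, ended 864 bp from the peak and shared it by the 1000 bp rule. A long non-coding RNA gene, AT1G56165, lay 49 bp from the peak. The next peak was 4799 bp beyond the other end of NF-YC2 and had a score of 2.10. Each peak at the followed genes was shared with another protein-coding gene. Of all peaks in the window of a gene, 44.6% lay in the windows of 2 or more.

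NF-YC3 and NF-YC9 are close paralogues that act, together with NF-YC4, in photoperiodic flowering with CONSTANS and in the control of germination by abscisic acid and gibberellin. Their peaks resembled each other in score and width, and both lay across the lower-coordinate end of the gene. The NF-YC3 peak was 199 bp wide (chromosome 1, 20451001 to 20451199) with a score of 2.30, rank 4068. The NF-YC9 peak was 149 bp wide (chromosome 1, 2882451 to 2882599) with a score of 2.27, rank 4263. The scores stood above 36.0% and 32.9% of the list. For their widths they were ordinary: the 884 peaks of 199 bp had a median score of 2.35 and the 872 peaks of 149 bp had a median of 2.20.

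Both of these peaks lay across a gene end, with more of the peak inside the gene than outside. The midpoint of the NF-YC3 peak was 17 bp inside the lower-coordinate end, with 117 bp of the peak inside the gene and 82 bp outside. The midpoint of the NF-YC9 peak was 34 bp inside the lower-coordinate end, with 109 bp inside and 40 bp outside. Both peaks faced a neighbour across a short gap, AT1G54820 at 85 bp from the NF-YC3 peak and CAX11, annotated as a cation calcium exchanger, at 217 bp from the NF-YC9 peak. Neither neighbour had another peak in its own window. A long non-coding RNA gene, AT1G08003, lay 886 bp from the NF-YC3 peak.

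NF-YC4 had a narrow peak near the bottom of the list. NF-YC4 is known as the partner of QQS, a protein that shifts the balance of carbon and nitrogen in the plant. Its peak (chromosome 5, 25417151 to 25417199) was 49 bp wide, the narrowest width in the list, shared by 472 peaks or 7.43% of it. The score of 2.00 ranked 6050 of 6356, above 4.81% of the list, and lay at the median of the 472 narrowest peaks, which was 2.00 as well. All 49 bp lay inside NF-YC4, at its higher-coordinate end, with the midpoint 24 bp from that end. The last base of the peak was the last base of the gene, so a shift of 1 bp outward would put it across the end. The last 367 bp of NF-YC4 overlap the gene AT5G63480, and the whole peak lay in the overlap, so it belongs to either gene. Overlaps of this kind are common in this annotation, where 24.9% of protein-coding genes overlap another.

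**Figure D2:**
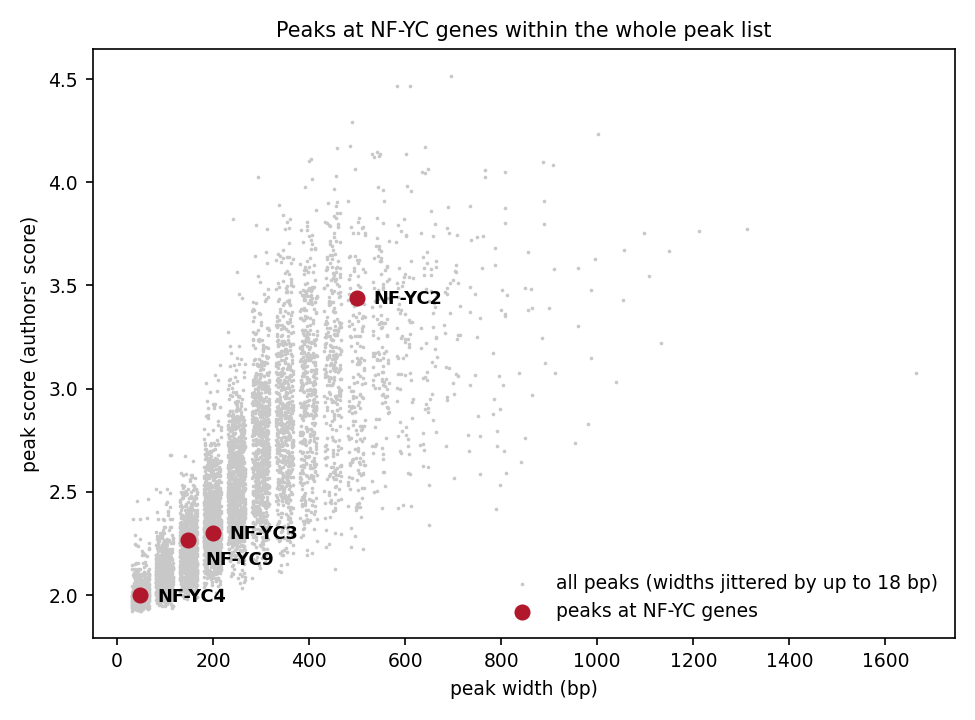
Peak width in bp (x axis) against the authors' score (y axis) for all 6356 peaks (grey, widths jittered) with the 4 peaks at NF-YC genes in red. NF-YC2 (3.44, 499 bp) stands among high scores, NF-YC3 and NF-YC9 lie in the body of narrow peaks and NF-YC4 (2.00, 49 bp) lies at the lower left corner.

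NF-YC1, the close paralogue of NF-YC4, lay farther from a peak than the 4 other genes. NF-YC1 acts redundantly with NF-YC3, NF-YC4 and NF-YC9 to restrain hypocotyl elongation in the light. Its nearest peak lay 20533 bp away (chromosome 3, 18030551 to 18030599) and was itself narrow, with a score of 2.05. The median distance over all protein-coding genes was 5088 bp, and 13.5% of genes were farther from a peak than NF-YC1. The wider region was not poor in peaks, since 10 lay within 50 kb of NF-YC1, against a median of 6 over all genes. The paralogue NF-YC4 had 16 peaks within 50 kb, more than 98.2% of genes had. NF-YC2, NF-YC9 and NF-YC3 had 6, 5 and 4. These counts include the peak at the gene itself where there is one. With NF-YC1 the only gene without a peak, they cannot show whether peaks in the region and a peak at the gene run in parallel. A missing peak is not shown to be missing binding, since neither the treatment of reads that map to several places nor the depth is known here.

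Peaks lay across an end, with at least 1 bp on each side, at 3 of the 5 genes, NF-YC2, NF-YC3 and NF-YC9, and at 8.44% of all protein-coding genes. The NF-YC4 peak lay wholly inside its gene, but its last base was the last base of the gene. A shift of 1 bp outward would put it across the end. Peaks across an end were also found at 4 of 10 NF-YA genes and 5 of 10 NF-YB genes. Among all genes with a peak, 34.4% had one across an end. A peak touched the gene itself at 4 of the 5 NF-YC genes, against 12.5% of all protein-coding genes. With the flanks of 1000 bp alone, leaving out the gene, 3 of the 5 had a peak, against 21.4% of all genes, and with the gene and 500 bp on either side 4 of the 5 had one, against 20.4%. The nearest peak left out by the rule was 1630 bp from NF-YC3, had a score of 2.08 and lay at AT1G54840 and AT1G54850. The annotation used has no strand, so the ends with peaks cannot be called starts or ends of transcription.

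The other NF-YC genes were set beside these 5. Peaks lay at 4 of the 5 followed genes and at 1 of the 8 others (NF-YC5, NF-YC6, NF-YC7, NF-YC8, NF-YC10, NF-YC11, NF-YC12 and NF-YC13), against 24.6% of all protein-coding genes. The 1 was NF-YC11, with a score of 2.79 (chromosome 3, 3957501 to 3957799), of which 37 bp lay inside the gene and 262 bp outside. NF-YC5, NF-YC6 and NF-YC7, which stand side by side on chromosome 5, had their nearest peak 32585, 29725 and 27271 bp away, and it was the same peak, with a score of 2.09. NF-YC10 lay 15616 bp from a peak. NF-YC8, NF-YC12 and NF-YC13 lay nearer, at 3354, 2827 and 1495 bp. With 5 and 8 genes, these counts describe the genes and were not tested.

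**Figure D3:**
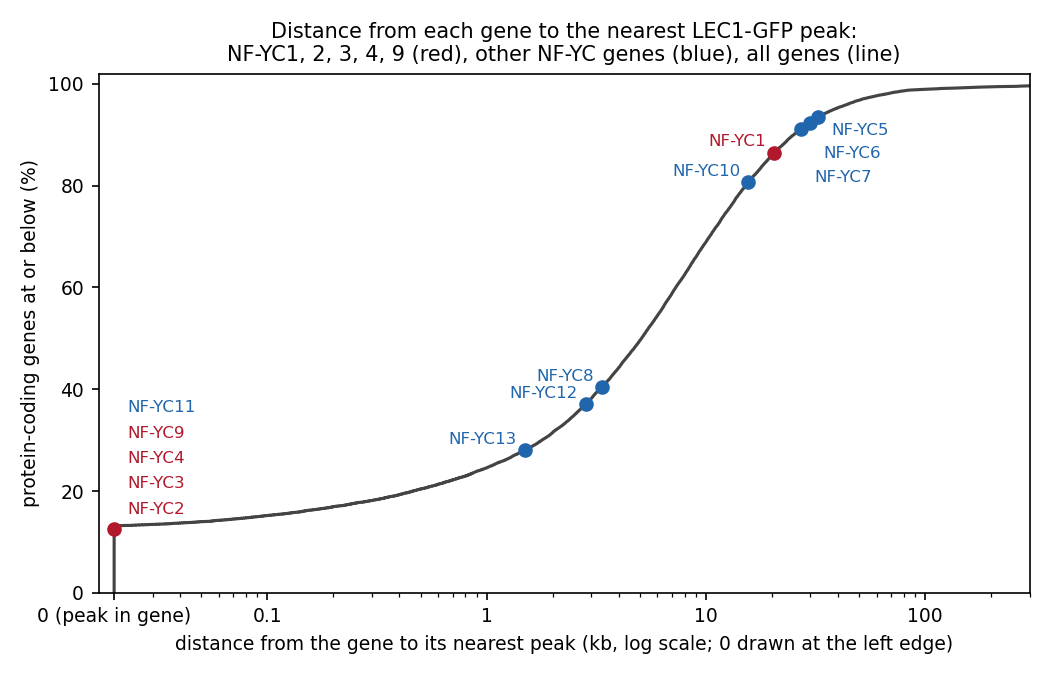
Share of protein-coding genes in percent (y axis) whose nearest peak lies at or below a given distance in kb (x axis, log scale, 0 drawn at the left edge), with the 5 followed NF-YC genes in red and the other NF-YC genes in blue. NF-YC2, NF-YC3, NF-YC4, NF-YC9 and NF-YC11 hold a peak, while NF-YC1 lies 20533 bp from one, between NF-YC10 and the neighbours NF-YC5, NF-YC6 and NF-YC7.

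The genes of the other NF-Y subunits had peaks at 8 of 10 NF-YA genes and 5 of 10 NF-YB genes, against 24.6% of all protein-coding genes. As for the followed genes, earlier results of these data were known, so these counts are a description and no evidence of enrichment. The highest scores among NF-YA genes were 3.18 at NF-YA1, 3.11 at NF-YA9 and 2.83 at NF-YA4, so no NF-YA gene reached the 3.44 of NF-YC2. Among NF-YB genes L1L, the closest relative of LEC1, had 3.64, NF-YB2 had 3.57 and NF-YB3 had 3.15. By the 1000 bp rule the L1L peak was shared with AT5G47660 and TRM10. The NF-YB2 peak was shared with AT5G47635 and NUDT2, and the NF-YB3 peak with AT4G14530. The peaks of NF-YA1, NF-YA9 and NF-YA4 were not shared with another protein-coding gene. The median of the highest scores was 2.28 over the 4 NF-YC genes with a peak, 2.62 over the 8 NF-YA genes, 3.15 over the 5 NF-YB genes and 2.51 over all 6738 protein-coding genes with a peak. LEC1 itself had 2 peaks with scores of 2.17 and 2.06, where the endogenous gene and the transgene, which carries LEC1 sequence, cannot be told apart.

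By score, the NF-YA or NF-YB gene most like NF-YC2 was NF-YB2, at a difference of 0.13, and the one most like both NF-YC3 and NF-YC9 was NF-YB8, with a score of 2.29 and differences of 0.01 and 0.02. NF-YA2, with a score of 2.01, was most like NF-YC4, at a difference of 0.01. These were the nearest of 13 NF-YA and NF-YB genes with a peak, compared on a single list. The NF-YB8 peak lay across the lower-coordinate end, with its midpoint 29 bp inside the gene. This is not particular to NF-YB8, since the peaks of NF-YB2, NF-YB3 and L1L lay across the lower-coordinate end of their genes as well. Without strand, that end may be a start in some genes and an end of transcription in others.

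**Figure D4:**
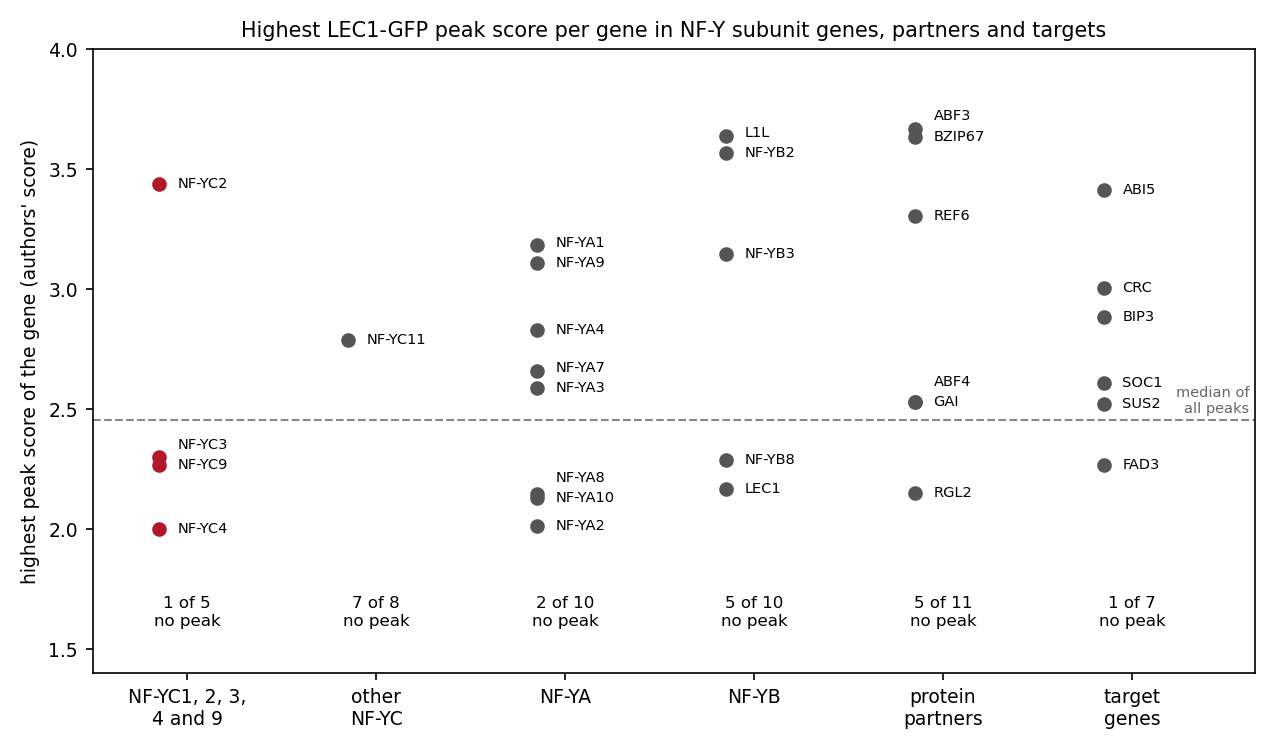
Highest peak score of each gene with a peak (y axis, authors' score) in the followed NF-YC genes (red), other NF-YC, NF-YA and NF-YB genes, protein partners and target genes of NF-YC proteins; the dashed line is the median of all peaks, 2.45, and the count of genes without a peak stands at the bottom. NF-YC2 (3.44) is the only followed gene above the line.

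Proteins known to work with NF-YC subunits were looked up next, to see whether the genes of the partners had peaks. Of 11 genes for such partners 6 had a peak, against 24.6% of all protein-coding genes. The partners were listed with earlier results of these data known, so their count is a description and no evidence of enrichment. The bZIP factors of abscisic acid signalling ABF3 and BZIP67 had the highest scores, 3.67 (chromosome 4, 16294501 to 16295649) and 3.64 (chromosome 3, 16081751 to 16082399). Both exceeded NF-YC2. REF6, a histone demethylase, had 3.31 from a peak in its flank, 309 bp from the gene, that also lay at its neighbour AT3G48440. ABF4 had 2 peaks, the higher with 2.53. Of the DELLA proteins, which restrain gibberellin responses, GAI had 2.53 and RGL2 had 2.15. Both peaks lay in the flank, 883 and 899 bp away, and that of RGL2 was shared with AT3G03460. With flanks of 500 bp neither gene would keep its peak. RGA had none, its nearest peak lying 1383 bp away. CO, BZIP28, HDA15 and QQS had no peak.

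Genes that NF-Y complexes with NF-YC subunits are known to regulate had peaks at 6 of 7, against 24.6% of all protein-coding genes. This list was chosen with earlier results of these data known, so the count is a description and no evidence of enrichment. ABI5, the bZIP factor that NF-YC3, NF-YC4 and NF-YC9 control with RGL2 in germinating seeds, had 3.41 (chromosome 2, 15207451 to 15207949), next to the 3.44 of NF-YC2. CRC, a cruciferin storage protein gene, had 2 peaks with scores of 3.01 and 2.41, both in its flank and shared with its neighbour PHB1. SUS2, a sucrose synthase gene that NF-YC2, L1L and BZIP67 activate like CRC, had 2.52. The peaks of ABI5 and SUS2 also lay within 1000 bp of AT2G36290 and AT5G49200. BIP3, a chaperone gene of the endoplasmic reticulum, had 2.88 from a peak shared with RBOHB. The flowering gene SOC1 had 2 peaks, 2.61 in its flank and shared with AGL6, and 2.25 inside the gene and not shared. The desaturase gene FAD3 had 2 peaks with scores of 2.27 and 2.26. FT, the florigen gene controlled by CONSTANS with NF-YC3, NF-YC4 and NF-YC9, had no peak, the nearest being 7074 bp away. NF-YC2, L1L, BZIP67, CRC and SUS2 all had a peak in these seeds. That set was put together after the values were seen, and its count is no evidence of its own either.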

How the data were processed

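The data were 1 peak list for the series from LEC1-GFP ChIP samples (n = 2) and input samples (n = 2). The TAIR10 build, Bowtie 0.12.7 and SAMtools 0.1.19 are named in the submitters' processing notes. No label or header gives the peak caller, the threshold or the pooling of replicates. The deposited score of each peak is the authors' own, of unknown scale. Without values per sample, ChIP and input were not compared, no test or error could be given, and depth is unknown.

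Starts were raised by 1 to count from 1. Gene names and positions came from a RefSeq table of assembly TAIR10.1, without strand or exons. It was checked against the peaks: 34.0% of midpoints lay inside genes, but 64.0% and 62.7% after moving the peaks by 10000 bp to either side. A gene had a peak when at least 1 bp of it lay in the gene or within 1000 bp of either end. Overlaps were computed in Python 3.11.15 with pandas 2.3.3 and checked on simulated data. All 51 listed genes were found by locus.

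The members and lists were chosen with earlier results of these data known. Genes named by rule were the NF-YC genes, LEC1 and L1L, neighbours sharing a peak, the 3 highest scores each among NF-YA, among NF-YB and among partners with targets, and the NF-YA or NF-YB gene nearest in score. Any other gene was picked with its value in view. Alternatives changed the window, the overlap, the assignment or the peaks used. Motifs in promoters were not analysed here, as no sequence was used.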

Additional observations from a re-analysis of the deposited data

How the results depend on the processing

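The count of 4 of the 5 NF-YC genes stayed at 4 with flanks of 500 bp (20.4% of all protein-coding genes) or 2000 bp (31.5%), the gene body alone (12.5%), the peak midpoint in the window (23.6%), the nearest gene only (17.4%) and without the widest 5% of peaks (23.8%). None of these settings could lower the count. Each of the 4 peaks has its midpoint inside its gene, and the widest of them, at 499 bp, is below the cut of 549 bp. The count was 3 with the flanks alone (21.4%), where NF-YC4 dropped out because its peak stops at the last base of the gene. Reaching 1 bp farther, that peak would have counted. With only the 3178 highest-scoring peaks it was 1, NF-YC2, against 13.5% of all genes. The other NF-Y genes then had a peak at 9 of 28, against 14 of 28 with all peaks. Of the 18 partner and target genes, 12 had a peak by the main rule (24.6% of all genes). With flanks of 500 bp it was 10 (20.4%), with 2000 bp 13 (31.5%), and with the gene body alone 8 (12.5%). All protein-coding genes with a peak numbered 6738, 3432 with the gene body alone and 3707 with the 3178 highest-scoring peaks, which both take away peaks or sequence by construction. The score at each NF-YC gene was the same in every setting that left it a peak, as it must be for genes with a single peak. A peak in 2 overlapping genes is equally near to both, so the nearest-gene setting gave the peaks of NF-YC2 and NF-YC4 to their overlapping neighbours as well. The background of genes of like length was added after the data were seen. No paired analysis was possible because the only data are 1 peak list with no values per sample, and for the same reason no replicate could be left out. The motif alternative was not run. Peak edges lie on a 50 bp grid, so distances are no finer than that. The read depth, which limits what narrow peaks such as that of NF-YC4 can show, is unknown.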

Other observations

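Some peaks around the NF-YC genes, chosen after their values were seen, scored higher than those at the NF-YC genes themselves. The highest of several peaks within 50 kb is set here beside at most a single peak per gene. A higher score nearby is therefore no trait of these genes. A peak with a score of 3.69, rank 114, lay 21244 bp from NF-YC1 at KING1, a gene for a regulatory subunit of a SNF1-related kinase (chromosome 3, 17986901 to 17987349). The highest peak within 50 kb of NF-YC4 had a score of 3.98, rank 30 (chromosome 5, 25383301 to 25383849), and lay 31751 bp away at AT5G63370 and AT5G63375. NF-YC3 lay 5830 bp from a peak of 649 bp with a score of 3.58 at AT1G54860 and AT1G54870 (chromosome 1, 20458501 to 20459149). NF-YC9 had no peak above 2.88 within 50 kb, and that one, 47459 bp away, was the peak that BIP3 shares with RBOHB. The highest peak within 50 kb of NF-YC2 was the peak at NF-YC2 itself. The share of all genes for which this holds was not computed.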
